A study of Mus musculus with 4 samples.

Results

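The interleukin-6 family comprises cytokines that signal through receptor complexes sharing the chain gp130, encoded by Il6st. Here it was followed through 10 genes, 5 for ligands (Il6, Il11, Lif, Osm and Cntf) and 5 for receptor chains (Il6ra, Il11ra1, Lifr, Osmr and Il6st). They were taken by name, and their probes were found through the RefSeq accession that the array files give for each probe. This gave 17 of the 56605 probes on the array, and 10 of 23461 named genes.

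Whole-brain total RNA was measured on 4 single-colour Agilent expression arrays, 1 per group, so no pair of arrays has a replicate check. The groups were wild-type mice injected with phosphate-buffered saline (PBS), Nav1.8CreROSA26DTA mice injected with PBS, wild-type mice injected with lipopolysaccharide (LPS, from the outer membrane of Gram-negative bacteria), and Nav1.8CreROSA26DTA mice injected with LPS. Per the labels, the LPS dose was 20 mg/kg, injected intraperitoneally, and tissue was harvested after 12 hours. In the second genotype Cre expressed from the Nav1.8 sodium channel gene switches on diphtheria toxin A from the ROSA26 locus, which removes sensory neurons of the Nav1.8 lineage, mostly nociceptors, outside the brain. The labels give no age, sex or strain, and do not say whether an array holds 1 mouse or a pool, so group and animal cannot be told apart. Bulk tissue cannot separate fewer cells of a type from less RNA per cell.

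Interleukin-6 binds Il6ra, and oncostatin M, leukaemia inhibitory factor and ciliary neurotrophic factor use gp130 together with Osmr or Lifr. The complexes activate Janus kinases and the transcription factor STAT3, whose targets include the feedback inhibitor Socs3. In brain these cytokines are known for fever and sickness signalling and for the reactive state of astrocytes, and Il6 itself is a classical target of NF-kB and C/EBP factors.

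The promoters of Il6, the ligand best known for induction by LPS, and Osmr, the receptor chain that changed most here, are printed as examples. Both are the 200 bases before the RefSeq start site, on build GRCm38.p6, read 5′ to 3′ on the gene's own strand. Capitals mark a match to a relaxed NF-kB motif, whose letters between the opening G run and the closing TTTCC are free, and to the relaxed C/EBP motif TTNNGNAAT.
Il6, chr5:30012914-30013113, + strand: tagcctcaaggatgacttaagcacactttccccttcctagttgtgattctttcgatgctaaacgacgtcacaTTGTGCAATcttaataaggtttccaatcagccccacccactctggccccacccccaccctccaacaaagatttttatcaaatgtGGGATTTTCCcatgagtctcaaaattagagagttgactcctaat
Osmr, chr15:6874314-6874513, - strand: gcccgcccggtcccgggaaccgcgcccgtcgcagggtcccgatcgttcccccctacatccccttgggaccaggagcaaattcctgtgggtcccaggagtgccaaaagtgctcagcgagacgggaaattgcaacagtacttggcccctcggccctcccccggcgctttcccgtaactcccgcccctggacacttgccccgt
In the Il6 window the C/EBP match began 128 bases and the NF-kB match 44 bases before the start site. The search covered both strands of 250 bases before to 50 after each start site, for 12 windows of 9 of the genes. It used those motifs, the strict NF-kB consensus and the strict C/EBP form TTGCGCAAT, and the STAT motifs TTCNNNGAA and TTCCNGGAA. Any match to a stricter form is also a match to the looser one for the same factor. Il6 alone among the 9 genes held any match, so the lack of a match did not set Osmr apart. Over all 32851 windows, 1.63% held the relaxed and 0.155% the strict NF-kB motif, 11.5% held TTNNGNAAT, 8.3% TTCNNNGAA, 1.15% TTCCNGGAA and 0.0487% TTGCGCAAT.

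Of the 10 genes, 8 were well above background on all 4 arrays by their chosen probe, and only these entered the test. Il6 was above background on 1 array, and Lif on 0. Levels are given as relative signal, the processed signal in percent of the array's 75th percentile. Probes differ in their response, so a level can be compared across arrays but not between genes.

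**Figure D1:**
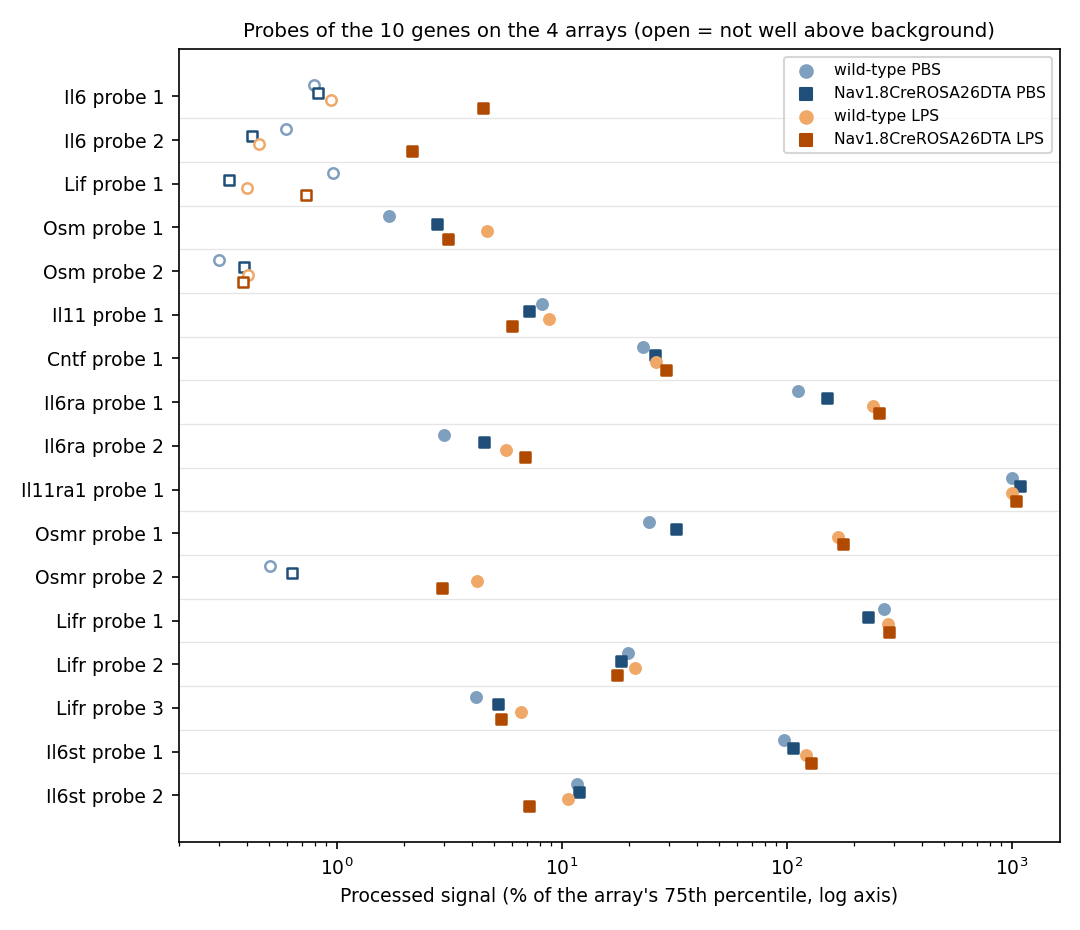
Relative signal (percent of the array's 75th percentile, log axis) of all 17 probes of the 10 genes, ligands above and receptor chains below, with probes of a gene numbered from the chosen one. Each mark is 1 array, and open marks are not well above background. Both Osmr probes sit far to the right with LPS, and both Il6 probes are filled only on the Nav1.8CreROSA26DTA LPS array.

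With LPS, 2 of the 8 tested genes rose and 0 fell, both of them receptor chains. Osmr, the chain that pairs with gp130 to bind oncostatin M, rose 6.18-fold, and Il6ra, the interleukin-6 binding chain, rose 1.92-fold. The average over genotypes sets 2 LPS arrays against 2 PBS arrays. The ± after a log2 difference is its standard error from limma. At an unadjusted p under 0.05 the count was 3 of 8, beside 23.8% of all genes. Over all 17132 genes tested, 5.84% were called higher and 4.87% lower at a Benjamini-Hochberg adjusted p of 0.05. That balance depends on scaling: 54.5% of all calls were higher, against 43.6% when arrays were scaled to their medians, 67.8% after cyclic loess and 70.7% in the deposited table. Without the intensity trend the share was 88%, and with an array left out it was 66.4% to 86.5%. The median of the 8 genes was 0.24 on the log2 scale, beside −0.03 for all genes tested.

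Osmr stood at 24.5 in wild-type PBS, 32.1 in Nav1.8CreROSA26DTA PBS, 169 in wild-type LPS and 178 in Nav1.8CreROSA26DTA LPS. Both LPS arrays lay far above both PBS arrays, and the genotypes lay close together within each injection. The averaged difference was 2.63 ± 0.13 (log2; limma adjusted p = 8.7e-07), with a 95% interval of 5.04-fold to 7.56-fold. It ranked 156th from the highest among the 17132 genes. The second Osmr probe did not clear background with PBS, at 0.503 and 0.633, and read 4.22 and 2.94 with LPS in the same order of genotypes. By that probe Osmr was at least 2.45-fold higher with LPS. This bound sets the bright mean against the higher of the probe's own dim signal and the lowest signal well above background on each PBS array.

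Il6ra read 112 and 152 on the wild-type and Nav1.8CreROSA26DTA PBS arrays, and 242 and 258 on the LPS arrays. The groups did not overlap, although the PBS arrays were further apart than the LPS arrays. The averaged difference was 0.94 ± 0.12 (log2; limma adjusted p = 0.00052). The call ended without the Nav1.8CreROSA26DTA LPS array (0.90). Here and below, fits with an array left out held no genotype term, so their LPS values mix in genotype. The Il6ra call also ended without the intensity trend in limma's variance model (adjusted p = 0.0807). The second, dimmer Il6ra probe read 3.0, 4.51, 5.64 and 6.90 in wild-type PBS, Nav1.8CreROSA26DTA PBS, wild-type LPS and Nav1.8CreROSA26DTA LPS. It ordered the arrays in the same way, and in a fit over probes its difference was 0.76 ± 0.28 (adjusted p = 0.113).

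The shared chain gp130 gave no called difference. The brighter Il6st probe read 97.5 and 107 with PBS and 122 and 129 with LPS, wild-type first. Its averaged difference was 0.30 ± 0.11 (limma adjusted p = 0.131), with an interval of 1.04-fold to 1.46-fold. It passed under 1 alternative, normexp background correction (adjusted p = 0.0444). The dimmer Il6st probe went the other way, at 11.7 and 11.9 with PBS and 10.6 and 7.17 with LPS. In the fit over probes that difference was −0.44 ± 0.22 (adjusted p = 0.261), so the probes of Il6st disagree in sign and neither passed. Il6st was the only 1 of the 10 genes whose tested probes disagreed in the sign of the LPS difference, and with the mean of both probes it was −0.07.

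The other receptor chains did not pass. Lifr, which pairs with gp130 for leukaemia inhibitory factor, read 270 and 231 with PBS and 283 and 286 with LPS by its brightest probe. Its difference was 0.19 ± 0.10 (limma adjusted p = 0.325). The probe for another Lifr transcript variant read 4.16 and 5.24 with PBS and 6.63 and 5.39 with LPS, a difference of 0.36 ± 0.28 in the fit over probes. The third Lifr probe differed by 0.02 ± 0.17. Il11ra1, the interleukin-11 binding chain, read 1005 and 1087 with PBS and 1002 and 1050 with LPS. The 95% interval of its difference ran from 0.854-fold to 1.13-fold, and the sign of the value, −0.03, turned with quantile normalization, cyclic loess, normexp and the deposited table. Its close copy Il11ra2 had no probe under its own accession, and the signals of the copies cannot be told apart.

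Among the 3 tested ligands, oncostatin M gave the widest spread. Osm read 1.71 in wild-type PBS, 2.79 in Nav1.8CreROSA26DTA PBS, 4.67 in wild-type LPS and 3.12 in Nav1.8CreROSA26DTA LPS. Both LPS arrays lay above both PBS arrays, but the Nav1.8CreROSA26DTA pair lay close together. The averaged difference of 0.81 ± 0.41 did not pass (limma adjusted p = 0.273), with an interval of 0.929-fold to 3.29-fold. The probe is dim, with processed signals of 10.4 to 29.2 where the lowest signals well above background were 7.60 to 11.5, and the second Osm probe was above background on 0 arrays. The difference was 0.06 with normexp, 0.51 with the mean of both probes, 0.45 without wild-type PBS and 0.52 without wild-type LPS.

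Il6 was detected on 1 array only. The brighter Il6 probe gave processed signals of 4.78 in wild-type PBS, 4.20 in Nav1.8CreROSA26DTA PBS, 5.89 in wild-type LPS and 32.3 in Nav1.8CreROSA26DTA LPS. The second Il6 probe gave 3.61, 2.15, 2.83 and 15.6 in that order. By both probes the Nav1.8CreROSA26DTA LPS array alone was well above background. Against Nav1.8CreROSA26DTA PBS, Il6 was at least 2.74-fold higher by the first and at least 1.32-fold higher by the second probe. Against wild-type LPS the bounds were at least 2.67-fold and at least 1.29-fold. These compare single arrays and carry no test. With no filter on dim probes limma called Il6 for LPS (1.35, adjusted p = 0.0299), but that average rests on 3 arrays not above background. Of all 23461 genes, 0.963% were above background on the Nav1.8CreROSA26DTA LPS array alone and 0.541% on the wild-type LPS array alone. The Nav1.8CreROSA26DTA LPS array was also the brightest of the 4, with a 75th percentile of 720 against 508 to 626. Among other genes detected there alone was Ttr, a choroid plexus marker, with processed signals of 1.89 and 3.33 with PBS, 8.62 in wild-type LPS and 48.1 in Nav1.8CreROSA26DTA LPS. The 6 choroid plexus markers summed to 0.21 array 75th percentiles in wild-type PBS, 0.311 in Nav1.8CreROSA26DTA PBS, 0.307 in wild-type LPS and 0.416 in Nav1.8CreROSA26DTA LPS, with 4, 5, 3 and 6 of them above background. The part of brightness or of choroid plexus tissue in the Il6 value was not tested.

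The remaining ligands gave no called difference. Cntf, which supports motor neurons and is made by glia, read 22.9 and 26 with PBS and 26.2 and 29.1 with LPS, a difference of 0.18 ± 0.16 (limma adjusted p = 0.552). Il11 read 8.19 and 7.17 with PBS and 8.80 and 6.02 with LPS, a difference of −0.07 ± 0.25 (adjusted p = 0.898). The Il11 arrays overlapped between injections. Lif was not well above background on any array, with processed signals from 1.69 to 5.84, and no fold is given.

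By array order, 6 of the 8 tested genes (Il6ra, Il6st, Lifr, Osm, Osmr and Cntf) had both LPS arrays above both PBS arrays, and 0 had both below. Over the 16244 genes above background on all arrays these shares were 21.5% and 29.9%.

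**Figure D2:**
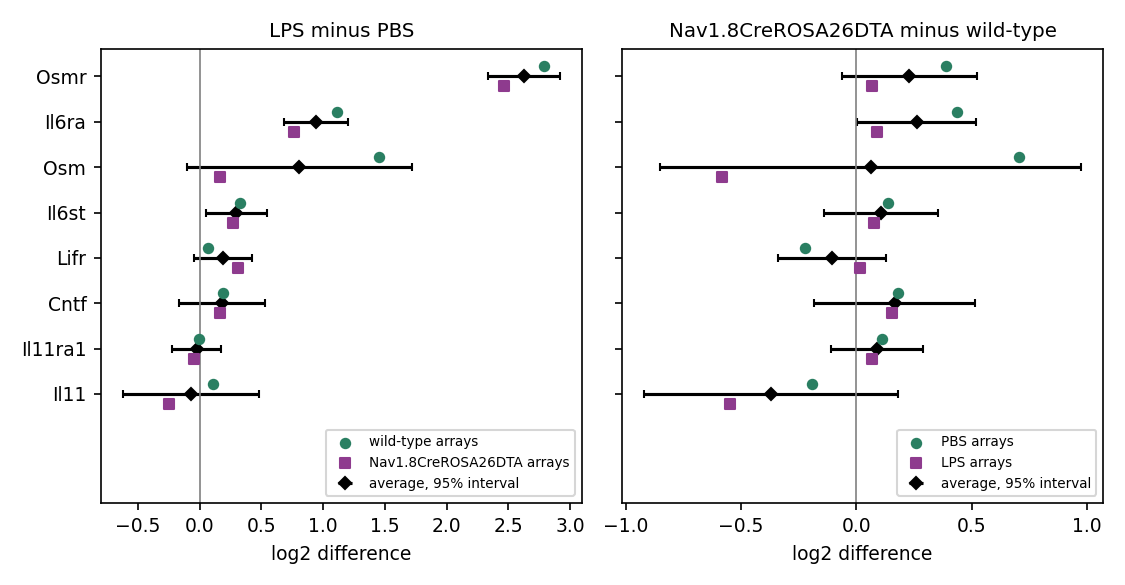
Log2 differences of the 8 tested genes for LPS minus PBS (left) and Nav1.8CreROSA26DTA minus wild-type (right). Diamonds with bars are limma's averages with 95% intervals, and coloured marks are the differences within single pairs of arrays. Osmr and Il6ra lie clear of 0 on the left, and the pairs of Osm lie furthest apart on both sides.

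Within genotypes, where no test is possible, 3 of 8 measured genes were at least 2-fold higher with LPS in wild-type and 1 of 8 in Nav1.8CreROSA26DTA. The shares of all measured genes were 3.41% and 3.10%, and for at least 2-fold lower, met by 0 of the 8 genes, 0.618% and 1.43%. Osmr was 6.90-fold higher in wild-type and 5.53-fold in Nav1.8CreROSA26DTA, and Il6ra was 2.16-fold and 1.70-fold higher. Osm was 2.73-fold higher in wild-type and 1.12-fold in Nav1.8CreROSA26DTA, a difference of responses of −1.29 (log2). Of all genes measured on the 4 arrays, 2.51% had responses at least 2-fold apart. The difference of responses was −0.32 for Osmr and −0.35 for Il6ra. None of these was tested.

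Between genotypes, averaged over injections, limma called 0 of the 8 genes, beside 0.695% of all genes (0.560% higher and 0.134% lower). At an unadjusted p under 0.05 the count was 1 of 8, against 10.3% of all genes. That gene was Il6ra, at 0.26 ± 0.12 (adjusted p = 0.477), with a difference of 0.44 with PBS and 0.09 with LPS. Osmr showed the same order by its chosen probe, 0.39 with PBS and 0.07 with LPS, for an average of 0.23 ± 0.13 (adjusted p = 0.621). The second Osmr probe, above background only with LPS, went the other way there (−0.52), and averaged −0.095 ± 0.50 in the fit over probes. The intervals of the averages ran from −0.11 to 0.29 for Il11ra1, from −0.34 to 0.13 for Lifr, from −0.14 to 0.35 for Il6st and from −0.18 to 0.51 for Cntf. Il11 (−0.92 to 0.18) and Osm (−0.85 to 0.98) were less precise. Within each injection 0 of 8 genes were 2-fold apart in either direction. The share of measured genes at least 2-fold higher in Nav1.8CreROSA26DTA was 1.21% with PBS and 0.829% with LPS, and 0.415% and 0.375% were lower.

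Other family genes mostly stayed within error. Of 11 listed, 8 were tested, 1 rose and 0 fell with LPS, with a median of 0.06. Over all genes tested 5.84% rose and 4.87% fell, with a median of −0.03. The riser was Cntfr, the ciliary neurotrophic factor binding chain, at 0.69 ± 0.11 (limma adjusted p = 0.003). Its call ended without the Nav1.8CreROSA26DTA PBS (0.43, adjusted p = 0.216), Nav1.8CreROSA26DTA LPS (adjusted p = 0.143) or wild-type LPS array (adjusted p = 0.247), and without the intensity trend (adjusted p = 0.123). The interleukin-27 receptor chain Il27ra (0.91 ± 0.35, adjusted p = 0.149) and Ebi3, a subunit of interleukin-27 (0.42 ± 0.15, adjusted p = 0.117), did not pass. Il27ra is dim, and normexp, whose offset shrinks dim differences, gave 0.04. Ebi3 passed with no filter on dim probes (adjusted p = 0.0465), and its difference was 0.07 without the Nav1.8CreROSA26DTA LPS array and 0.78 without the wild-type LPS array.

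Downstream of gp130, 3 of 15 signalling genes rose and 0 fell, beside 5.84% and 4.87% of all genes, with a list median of 0.04. Socs3, which blocks gp130 signalling, rose by 1.76 ± 0.12 (limma adjusted p = 6.7e-06). Stat3 rose by 0.62 ± 0.10 (adjusted p = 0.0023). The Stat3 call ended without wild-type PBS (adjusted p = 0.084), wild-type LPS (0.0542) or Nav1.8CreROSA26DTA LPS (0.136), with the mean of all probes (0.058) and without the intensity trend (0.105). Socs3 responses were 1.78 in wild-type and 1.73 in Nav1.8CreROSA26DTA. The largest values that did not pass were 0.61 ± 0.20 for Socs1 and −0.61 ± 0.19 for the adaptor Gab1 (adjusted p = 0.0848 and 0.0701). Gab1 passed with scaling to the median (adjusted p = 0.0404) and quantile normalization (0.0474). The kinase genes Jak1, Jak2 and Tyk2 differed by 0.02, 0.08 and 0.10, with adjusted p from 0.739 to 0.910.

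Of 10 genes that control Il6 transcription, its mRNA or receptor shedding, 5 rose and 0 fell, with a median of 0.96. Among all genes tested those shares were 5.84% and 4.87%. Cebpd, a C/EBP factor, rose by 1.91 ± 0.10 and Nfkbiz, an NF-kB cofactor for Il6, by 1.71 ± 0.22. Rhbdf2, which brings the sheddase ADAM17 to the cell surface, rose by 1.40 ± 0.22, and Zfp36, which promotes decay of cytokine mRNA, by 1.13 ± 0.18. Limma's adjusted p was 1e-06, 0.00066, 0.0026 and 0.0027 in that order. Without the intensity trend the calls of Nfkbiz (adjusted p = 0.0815) and Zfp36 (0.0684) ended. Without an array, calls ended for Nfkbiz (wild-type PBS 0.0505, Nav1.8CreROSA26DTA PBS 0.0582), Rhbdf2 (wild-type LPS 0.0737, Nav1.8CreROSA26DTA LPS 0.0843) and Zfp36 (wild-type LPS 0.0889, Nav1.8CreROSA26DTA LPS 0.0961). Zc3h12a, which cleaves Il6 mRNA, was not well above background with PBS. It was at least 1.64-fold higher with LPS, and its measured signals did not pass (adjusted p = 0.063). With no filter on dim probes Zc3h12a passed (adjusted p = 0.00049), and with normexp, whose offset shrinks dim differences, its difference was 0.0021. With normexp Rhbdf2 differed by 0.65, Zfp36 by 0.73 and Nfkbiz by 1.12, each still called. Adam17 itself differed by 0.27 ± 0.16 (adjusted p = 0.36).

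Of 21 listed genes known to respond to STAT3, 18 rose and 0 fell, with a median of 1.89. Over all genes tested 5.84% rose and 4.87% fell. The list was chosen with earlier results of these data known, so its count is a description and not a test. The list overlaps the lists above in Socs3 and Cebpd, and many of its genes also answer to NF-kB or interferon. The iron carrier gene Lcn2 rose by 8.30 ± 0.22, the protease inhibitor genes Serpina3n by 5.03 ± 0.19 and Timp1 by 4.24 ± 0.11, with limma adjusted p of 1.1e-08, 1.3e-07 and 1.1e-08. Steap4, a metalloreductase, was below the background limit with PBS, which puts it at least 5.64-fold higher with LPS. Its fitted difference was 4.61 ± 0.45 (adjusted p = 0.0001), and 0.73 with normexp, whose offset shrinks dim differences, still called. The kinase gene Pim1 (0.32 ± 0.14, adjusted p = 0.205) and the survival gene Mcl1 (0.31 ± 0.09, adjusted p = 0.0617) did not pass. Mcl1 passed under 5 alternatives, with adjusted p from 0.01 to 0.0381. For genotype, 2 of the 21 were called higher in Nav1.8CreROSA26DTA and 0 lower, beside 0.560% and 0.134% of all genes. Lcn2 was 1 of them, at 1.24 ± 0.22 (limma adjusted p = 0.0413). Its log2 levels were −3.77 and −1.91 with PBS and 5.15 and 5.77 with LPS, wild-type first, so the gap was wider with PBS. The neutrophil marker S100a8 also read higher in Nav1.8CreROSA26DTA PBS (356) than in wild-type PBS (21.7). The part of such cells in the Lcn2 value was not tested. Without the intensity trend 0 genes were called for genotype.

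**Figure D3:**
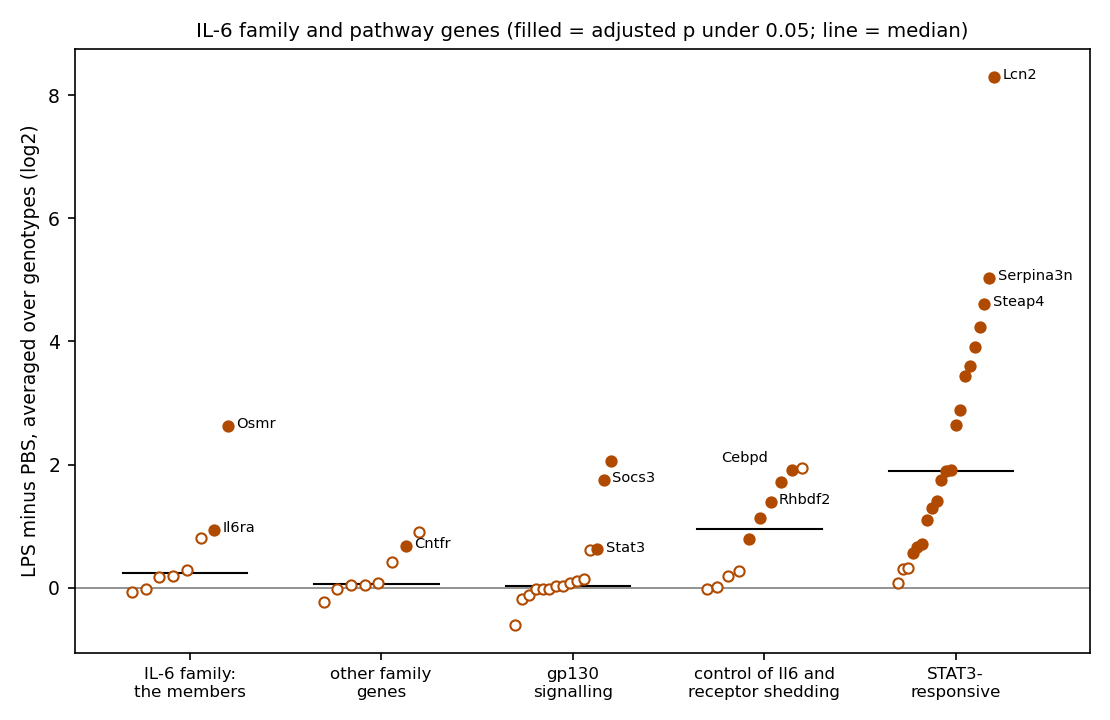
Averaged LPS difference (log2) of each tested gene, by list, in rising order within a list. Filled marks passed at an adjusted p of 0.05 and lines are list medians. The STAT3-responsive genes lie highest, with a median of 1.89, whereas the gp130 signalling genes centre on 0.04.

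By Euclidean distance between centred log2 profiles over the 4 arrays, the nearest of 16243 genes to Osmr were Psmb8, an immunoproteasome subunit (0.16), Gm12250 (0.17) and Phf11b (0.22). The nearest to Il6ra were Tlr4, the LPS receptor (0.03), Greb1 (0.07) and Adora3, an adenosine receptor (0.08). With 4 points a profile is mostly the step from PBS to LPS.

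**Figure D4:**
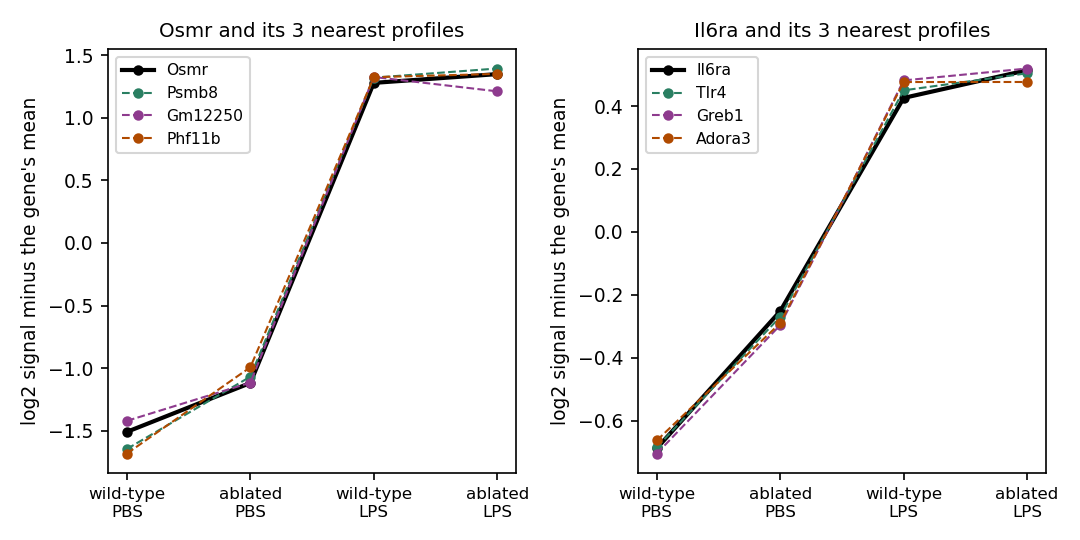
Log2 signal of Osmr (left) and Il6ra (right), each minus its own mean, on the 4 arrays, with the 3 genes of nearest profile (dashed); "ablated" is Nav1.8CreROSA26DTA. The nearest profile to Osmr is Psmb8 at a distance of 0.16, and to Il6ra it is Tlr4 at 0.03.

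Markers of some cells that can express these genes moved as well, and others changed little. The tissue label matched its markers, since all 5 neuron, 6 astrocyte and 4 oligodendrocyte markers were above background on every array. The 6 brain endothelium markers, in cells that carry Osmr, had a summed level of 18.0 to 18.9 array 75th percentiles with PBS and 30.0 to 36.9 with LPS, with 2 rising and 2 falling. The higher sum is Ly6c1, at 7.2 to 7.29 with PBS and 20.8 to 26.6 with LPS, and the other 5 markers summed to 10.8 to 11.6 and 9.16 to 10.3. The 6 meningeal fibroblast markers summed to 4.32 in wild-type PBS and 10.6 in Nav1.8CreROSA26DTA PBS, and to 12.9 to 15.6 with LPS, with 2 rising. Without Dcn, the brightest, the other 5 summed to 2.66 and 6.45 with PBS and 4.90 and 4.86 with LPS. The 6 microglia markers summed to 18.2 to 21.3 with PBS and 12.3 to 12.4 with LPS, and 5 fell. Of 10 neutrophil markers, which mark a source of oncostatin M and carriers of Il6ra, 6 were above background in wild-type PBS, 9 in Nav1.8CreROSA26DTA PBS, 8 in wild-type LPS and 9 in Nav1.8CreROSA26DTA LPS. In that list 4 of 9 tested markers rose, and Cxcr2 was above background on 0 arrays. Its sum of 53.5 to 67.4 with PBS and 67.0 to 71.8 with LPS is carried mostly by Csf3r, with processed signals from 25140 to 46040. Without Csf3r the other 9 summed to 0.437 in wild-type PBS, 4.02 in Nav1.8CreROSA26DTA PBS, 5.39 in wild-type LPS and 7.81 in Nav1.8CreROSA26DTA LPS. S100a8 alone read 21.7, 356, 662 and 1199 in that order. Camp, Mpo and Ltf differed by −0.67, −0.79 and −0.04 with LPS and were not called. They were brightest in Nav1.8CreROSA26DTA PBS, at processed signals of 246, 55.5 and 79.7. The 4 monocyte markers summed to 6.70 to 7.22 with PBS and 21.2 to 24.6 with LPS, with 3 of 3 tested rising. The untested marker, Ccr2, was above background on 1 array, Nav1.8CreROSA26DTA PBS. Its processed signals were 8.17 in wild-type PBS, 17.8 in Nav1.8CreROSA26DTA PBS, 2.43 in wild-type LPS and 2.66 in Nav1.8CreROSA26DTA LPS. Ly6c2, a close copy of Ly6c1 whose signal cannot be told apart from it, carries most of that sum, and the other 3 markers summed to 0.0561 in wild-type PBS, 0.498 in Nav1.8CreROSA26DTA PBS, 0.591 in wild-type LPS and 1.15 in Nav1.8CreROSA26DTA LPS. The part of these cells in the values of Osmr, Il6ra and Osm was not tested.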

How the data were processed

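Single-colour Agilent arrays of whole mouse brain were used, 1 per group. The deposited spot intensity, the processed signal, is background-subtracted and detrended within an array, per the file headers, and is not scaled between arrays. The flags for background, saturation and outliers are software scores of 0 or 1, per the file headers. The headers name Feature Extraction 12.0.3.1, and the submitters' processing notes name 11.0.1.1. The deposited value table, an intensity, equalled the processed signal times 1 factor per array (1.82, 2.09, 1.83 and 1.57 in the order used above) within 0.1% for at least 59304 of 59305 spots. Its medians were 97.2, 91.4, 103 and 102. The sources used here do not say how these factors were chosen.

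Signals were divided by the 75th percentile of their array (605, 508, 626 and 720) and put on a log2 scale. The share of spots above background was 66.5% to 69.5%. There were 0 saturated spots, and 81 to 96 outlier spots an array were dropped. Repeat spots of 300 probes gave a median SD of 0.0418 to 0.0456 (log2). The number of arrays limits the precision. All arrays shared 1 slide and scan, so no batch could be fitted, and array position and group cannot be told apart.

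Probes were named by RefSeq accession with a table of GRCm38.p6 (33767 of 56605 matched), used for names only, and promoter sequences are RefSeq's from that build. A gene took the probe above background on the most arrays, then the brightest. The 17132 genes above background on at least 2 arrays were fitted in limma 3.58.1 (R 4.3.3) with terms for genotype and agent and an intensity trend. The fit leaves 1 residual degree of freedom, with 8.87 borrowed across genes, so errors measure no spread between animals, and a real difference of response counts as error. Tests are two-sided with Benjamini-Hochberg adjustment over all genes. With an array left out the fit held only the term in question. The LPS value then mixes in genotype, so a call that ends there is not the same test on fewer arrays. The files give no mean spot signal, so normexp used the median signals with an offset of 50. Genes named in a list are the 4 largest that passed and the 2 largest that did not, and 1 gene that passed is not reported here. The members, lists and rules were chosen with earlier results of these data known.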

Additional observations from a re-analysis of the deposited data

Results flagged for a closer look

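Opposite signs of the LPS difference in the 2 genotypes, or of the genotype difference with PBS and with LPS, marked 4 results, each from single arrays. The rule took probes above background on all arrays, with differences beyond 0.0615 (log2), the technical spread of a pair of repeat spots. That spread was not measured for the flagged probes, which have 1 spot each. In the fit over probes the standard errors were 0.24 for Il11 and 0.39 for Osm. They were 0.17 and 0.28 for the second and the transcript-variant Lifr probes. Il11 was higher with LPS in wild-type by 0.10 and lower in Nav1.8CreROSA26DTA (−0.25). The second Lifr probe was higher by 0.11 in wild-type and lower in Nav1.8CreROSA26DTA (−0.07). For genotype, the Lifr transcript-variant probe was higher in Nav1.8CreROSA26DTA by 0.33 with PBS and lower with LPS (−0.30), and Osm was higher by 0.71 with PBS and lower with LPS (−0.58). None of these differences was tested.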

How the results depend on the processing

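Of the members, 2 were called for LPS. The count was 1, Osmr, without the intensity trend and without the Nav1.8CreROSA26DTA LPS array (range 1 to 2 with arrays left out). It was 3 with normexp, which added Il6st, and with no filter on dim probes, which added Il6 (1.35, adjusted p = 0.0299) from signals not above background on 3 arrays. The other alternatives gave 2. Osmr was called each time, at 2.24 to 2.70, and at 2.43 to 2.82 with an array left out. For genotype 0 of the 8 genes were called under every alternative run, and over all genes 0 were called in either direction without the intensity trend or with any array left out (unadjusted p under 0.05: 1479 and 238 to 795 genes). Over all genes 1000 were called higher and 834 lower with LPS. The lower count was 463 with cyclic loess, 433 with the deposited table and 544 with the mean of all probes. Both moved to 1575 and 1560 with no filter on dim probes and to 403 and 55 without the trend, and with arrays left out ran from 370 to 552 and 86 to 232. For genotype, 96 higher and 23 lower became 179 and 62 with quantile normalization, 21 and 8 with cyclic loess, 246 and 127 with normexp, 20 and 8 with the deposited table, 646 and 302 without the filter, and 12 and 1 with the mean of all probes. Scaling to the median gave 153 higher. The cause of these moves was not tested.

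Signs turned for Il11ra1 with LPS, which was 0.051 with quantile normalization, 0.053 with cyclic loess, 0.015 with normexp and 0.045 in the deposited values, and ran from −0.083 to 0.030 with arrays left out. For Il6st the mean of its probes gave −0.071 for LPS and −0.083 for genotype. With arrays left out Il11 ran from −0.35 to 0.20 for LPS. Those fits held no genotype term, so the LPS value mixes in genotype. The genotype value likewise mixes in the injection, since 1 genotype keeps 1 array. It ran from −0.29 to 0.82 for Il6ra, −0.055 to 0.27 for Il6st, −0.66 to 0.79 for Osm, −1.16 to 1.62 for Osmr and −0.26 to 0.049 for Lifr. The 1 gene with responses at least 2-fold apart (Osm) became 0 with normexp and with the mean of its probes. For so dim a probe the normexp offset shrinks differences by construction. Motifs in 250 bases before the start alone gave the same matches in Il6. A fit over probes, chosen after seeing the data, called Osmr by both probes and Il6ra by the brighter one. No paired analysis was possible because each group holds 1 array and the labels give no replicate numbers.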
